A study of Mus musculus with 6 samples.

Results

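The genes described here make ribosomes: the factors that cut, fold and modify ribosomal RNA in the nucleolus. They were taken from mouse expression arrays by name, as genes whose symbol starts with Utp, Rrp, Nop, Nol or Noc followed by a number, together with 27 listed nucleolar genes. Of those 27, 26 were found on probe sets that carry 1 gene symbol, and the name pattern added 40, so 66 genes were followed among 18193 measured genes. The remaining listed gene, Mrto4, shares its probe set with 2 other symbols and is given below as a value only. The arrays hold RNA of uterine horn from ovariectomized GATA2 f/f female mice aged 8 weeks on a mixed background, 3 arrays after oil and 3 after P4 (progesterone). All 6 samples carry the floxed Gata2 alleles, and the labels name no recombinase, so both groups are read as floxed animals without a stated deletion. The dose, the route and the time after injection are not given in the sources used here, and the labels do not tie each array to its own animal. The p-values therefore rest on the scatter among 6 samples, part or all of which could be technical. The question the comparison addresses is which uterine genes respond to progesterone.

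A ribosome begins as a long precursor RNA transcribed in the nucleolus, which is then trimmed, chemically modified and loaded with ribosomal proteins. Small nucleolar ribonucleoproteins (snoRNPs) guide methyl groups and pseudouridines to chosen bases, a large particle called the small subunit processome shapes the precursor of the 40S subunit, and a separate series of factors builds the precursor of the 60S subunit. The uterus grows and remodels under steroid hormones, and ribosome production is a known part of cell growth.

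Promoter windows are shown first because a large share of the genes rose with P4, so a reader may want to see the sequence around their start sites. They come from RefSeq on GRCm38.p6 and run from 250 bases before to 50 bases after the annotated start, 300 bases in all. The 4 genes shown are those with the largest P4 differences among genes that rose and hold the palindrome CACGTG, the E-box bound by MYC-family proteins. Capitals mark CACGTG, and each line reads 5′ to 3′ on the strand of the gene. Ltv1 lies at chr10:13193088-13193387 on the minus strand, Tsr1 at chr11:74897830-74898129 on the plus strand, Utp18 at chr11:93885717-93886016 on the minus strand and Nop2 at chr6:125131633-125131932 on the plus strand.
Ltv1: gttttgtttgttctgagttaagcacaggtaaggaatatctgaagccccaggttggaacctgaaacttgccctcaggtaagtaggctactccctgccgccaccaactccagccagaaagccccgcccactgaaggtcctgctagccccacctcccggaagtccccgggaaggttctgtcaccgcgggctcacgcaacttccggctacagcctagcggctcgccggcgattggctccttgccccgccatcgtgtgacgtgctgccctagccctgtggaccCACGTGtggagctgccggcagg
Tsr1: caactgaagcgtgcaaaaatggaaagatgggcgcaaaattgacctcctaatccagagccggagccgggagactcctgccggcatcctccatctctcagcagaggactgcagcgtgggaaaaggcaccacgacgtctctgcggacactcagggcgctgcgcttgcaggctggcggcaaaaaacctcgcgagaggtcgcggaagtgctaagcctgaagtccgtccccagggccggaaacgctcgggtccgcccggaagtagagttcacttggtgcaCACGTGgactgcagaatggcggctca
Utp18: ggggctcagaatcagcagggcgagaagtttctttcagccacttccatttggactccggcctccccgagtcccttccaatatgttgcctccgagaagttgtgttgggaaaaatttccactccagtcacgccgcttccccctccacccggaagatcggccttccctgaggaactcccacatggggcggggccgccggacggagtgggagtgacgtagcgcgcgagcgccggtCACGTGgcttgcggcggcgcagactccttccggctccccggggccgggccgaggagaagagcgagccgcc
Nop2: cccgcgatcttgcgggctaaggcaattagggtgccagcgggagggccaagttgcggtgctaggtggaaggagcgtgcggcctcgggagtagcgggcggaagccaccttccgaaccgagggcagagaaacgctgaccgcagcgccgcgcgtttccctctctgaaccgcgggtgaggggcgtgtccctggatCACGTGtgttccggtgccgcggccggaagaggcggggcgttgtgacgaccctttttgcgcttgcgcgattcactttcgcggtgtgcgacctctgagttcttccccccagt
With the annotated start counted as base 1, the palindrome starts at base 29 in Ltv1 and at base 25 in Tsr1. It starts 20 and 60 bases before the annotated start in Utp18 and Nop2. A window was found for 54 of the 66 genes. CACGTG was in at least 1 window of 13 of those 54 (24.1%), against 10.3% of 14368 measured genes with a window. Counted by window, 15 of the 64 windows of these genes held CACGTG, against 7.15% of all 32851 windows. Windows of 1 gene can overlap, as those of Utp25 do, and its 1 palindrome was counted more than once. Among the genes that rose with P4 it was in 7 of 32 (21.9%), and among those not called it was in 6 of 22 (27.3%). The shares in these groups rest on few genes and were not tested against each other. By role, 11 of 27 small subunit genes held it, 2 of 17 large subunit genes and 0 of 7 snoRNP genes. Searched on both strands in the same windows, CATGTG was in 8 of the 54 (14.8%, against 12% of measured genes), TGTTCT, the half-site letters of progesterone and glucocorticoid receptors, in 7 (13.0%, against 16.9%), and AGATAA, letters bound by zinc finger proteins such as Gata2, in 3 (5.56%, against 9.53%). No pair of these 4 motifs has the same letters on either strand, so that 1 run of bases counts for 1 motif only. A match describes letters and is not a binding site.

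The array medians of intensity lay between 117 and 123, and correlations of log2 values between arrays ran from 0.967 to 0.994. Markers of the labelled tissue were present: sums over 8 smooth muscle markers were 45624 to 46011 on the oil arrays and 41639 to 48897 on the P4 arrays, and over 9 stromal markers 48275 to 55650 and 42427 to 54019. Sums over 8 epithelial markers were 14008 to 16069 after oil and 8808 to 14566 after P4, and Krt18 and Krt19 were lower on every P4 array than on every oil array. Sums over 7 endothelial markers did not overlap, at 5088 to 5929 after oil and 4813 to 4906 after P4, with all 7 differences below 0 (median -0.29 log2), 6 of them with scaling to the hybridisation controls. The part of these shifts in the results below was not tested. Some arrays stood apart in leukocyte RNA. The summed intensity of 6 granulocyte markers, led by S100a8 and S100a9, was 573, 515 and 6502 on oil arrays 1 to 3 and 577, 6657 and 9842 on P4 arrays 1 to 3. A sum over 8 general leukocyte markers was 1321, 2008 and 3378 after oil and 1036, 3006 and 3285 after P4. No marker of any list was at 0, and 0 of the 6 granulocyte, 8 leukocyte, 8 epithelial and 8 smooth muscle markers passed the test. A single marker fell in the stromal list (Lum, by 0.90 log2), the endothelial list (Tek, by 0.38) and the list for ovary and oviduct (Inha, by 0.58), by limma with an adjusted p of 0.0156, 0.0404 and 0.0141; Tek was not called with scaling to the hybridisation controls (0.132). Tek held in 1 of the 6 fits that left out 1 array, Lum was lost without oil array 2, and Inha without oil array 2 or P4 array 2. With the replicate block, 3 epithelial markers were called lower (Krt19, Krt18 and Epcam; limma adjusted p = 0.0147, 0.031 and 0.0465), as were Pecam1 beside Tek (0.0229) and Thy1 beside Lum (0.0243), while Col1a1 and Col3a1 were called higher (0.0247 and 0.0309).

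A large share of the ribosome-making genes was higher after P4. These genes were chosen with earlier results of these data known. With limma on log2(intensity + 16), the adjusted p under 0.05 over all 18193 genes, 36 of the 66 rose, 1 fell (Nop53) and 29 were not called. Over all measured genes the same rule called 2368 (13.0%), of which 1106 were higher (6.08%) and 1262 lower (6.94%). The median log2 difference, P4 minus oil, was 0.45 over the 66 genes and -0.01 over all genes. Of the 66, 60 differences were above 0 and 6 below. The lowest P4 array was above the highest oil array for 48 of the 66, a pattern seen in 14.3% of all genes. Changes were modest in size: 6 genes were called and at least 2-fold higher (Rrp12, Rrs1, Ddx21, Heatr1, Ltv1 and Tsr1), against 0.989% of all genes. In bulk tissue, a change in the number of cells that express a gene and a change in RNA per cell cannot be told apart.

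**Figure D1:**
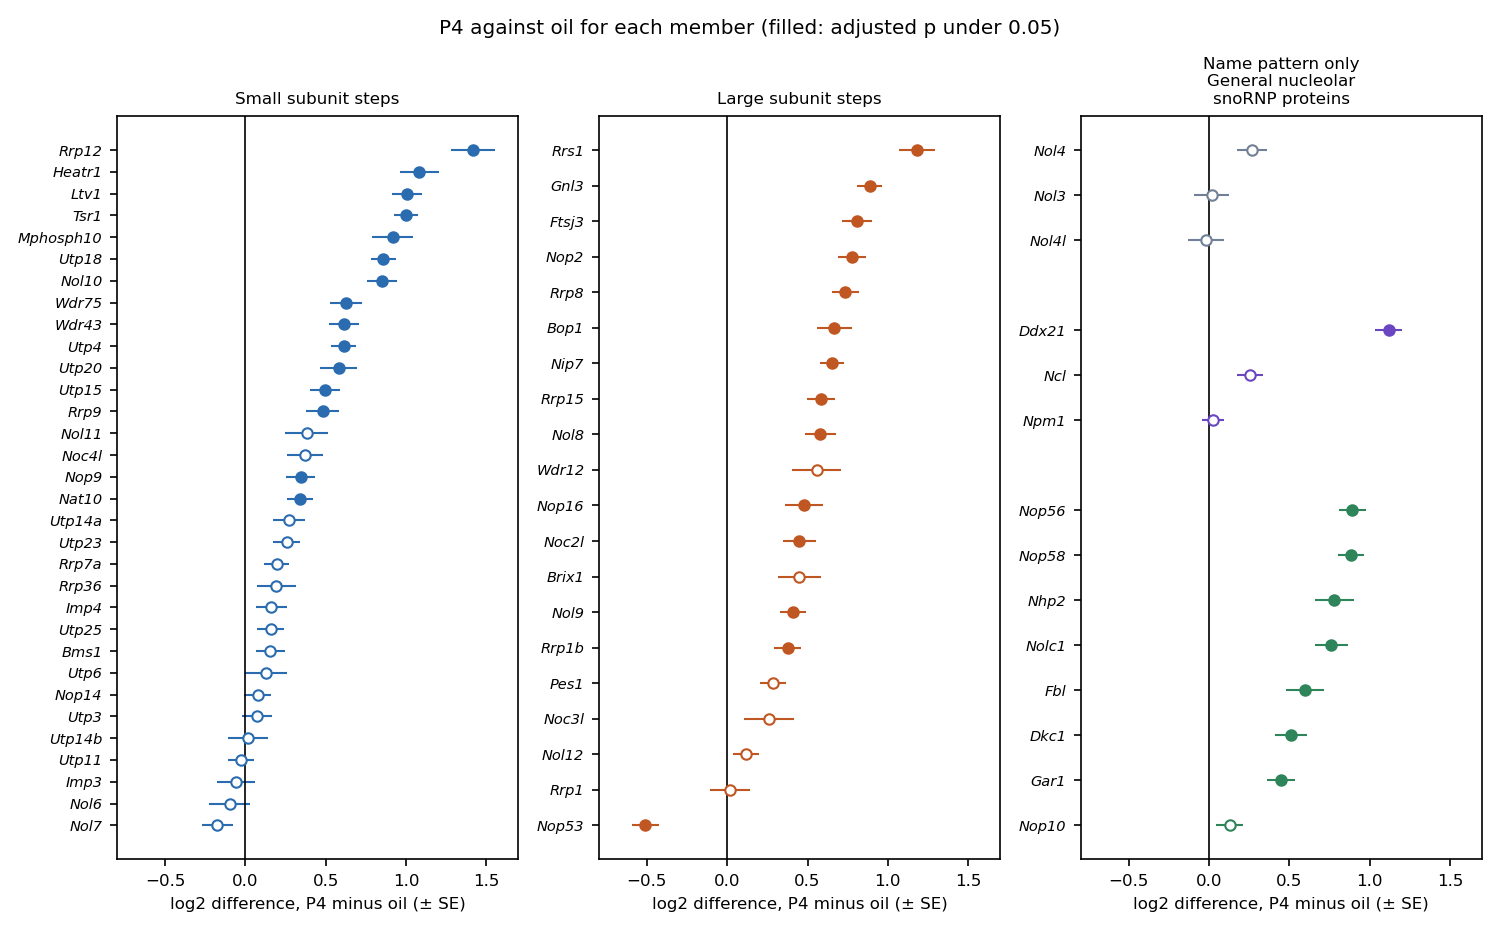
Log2 difference of P4 minus oil (x axis) with its standard error for each of the 66 genes (y axis), in panels by role, from limma over 3 oil and 3 P4 arrays. Filled points passed an adjusted p of 0.05; 36 of them lie right of 0 and Nop53 alone lies left of it.

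The rise was present on each P4 array. Set against the mean of the oil arrays, the 66 genes averaged 0.385, 0.498 and 0.468 log2 higher on P4 arrays 1, 2 and 3, while the oil arrays averaged 0.009, -0.015 and 0.006. P4 array 1 was the lowest of the P4 arrays for 39 of the 66 genes, and for 6621 of all 18193 genes. It was also the P4 array with the lowest leukocyte and granulocyte sums, and the part of those cells in the result was not tested. The granulocyte sums of P4 array 1 and oil arrays 1 and 2 lay between 515 and 577. Cell division markers did not pass the test: 0 of 12 were called, with sums of 4380, 4030 and 7159 after oil and 4130, 4858 and 7356 after P4. Of the 12 differences, 10 were above 0 and 2 below. Standard errors were wide for Top2a (0.66 ± 0.59 log2), Cdk1 (0.11 ± 0.56) and Mki67 (0.09 ± 0.54). The missing calls therefore do not show that cell division was unchanged. With the replicate block 1 of the 12 was called, Mcm6, which was lower after P4 (-0.57 log2, limma adjusted p = 0.00656).

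**Figure D2:**
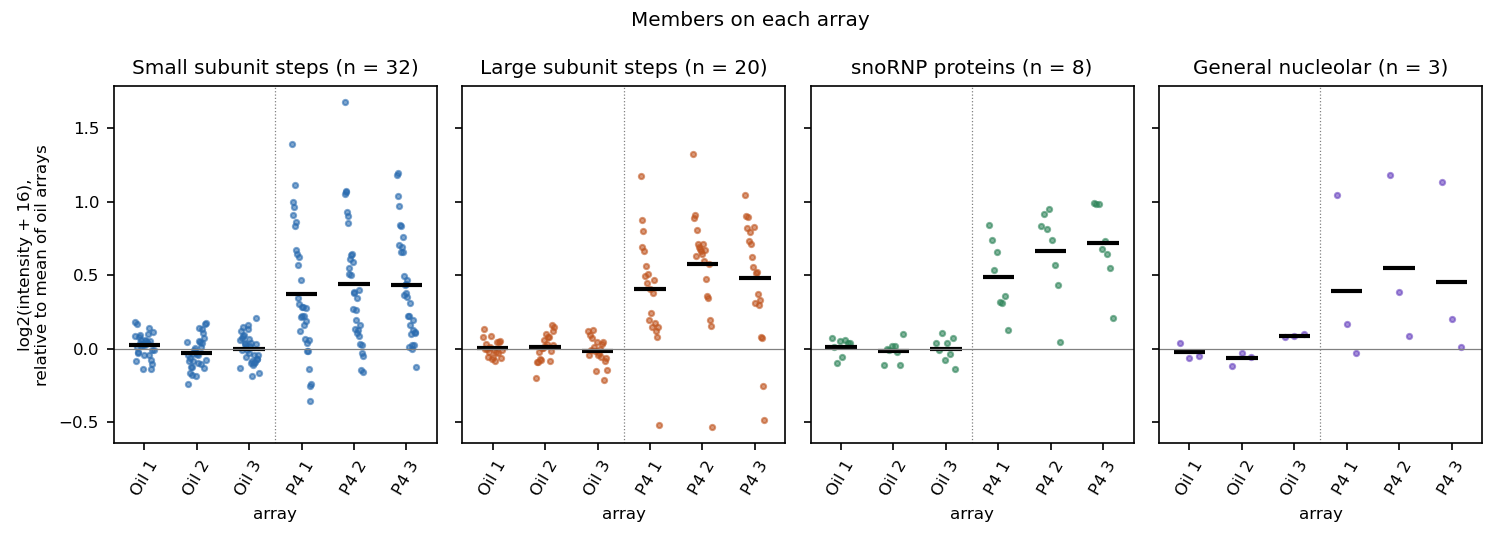
Each point is 1 gene on 1 array, as log2(intensity + 16) relative to the mean of the 3 oil arrays (y axis), for the 6 arrays (x axis) in 4 panels by role; black bars are means over the genes. The bars of the 3 P4 arrays lie above those of the oil arrays in every panel, from 0.37 to 0.72.

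The number of calls changed with the treatment of replicates. With the replicate number as a block, 41 of the 66 rose and 1 fell, where 20.9% of all genes were called. That pairing was read from the data, and oil array 2 correlated more with P4 array 1 (0.29) than with P4 array 2 (0.13). Results given for single genes with the block do not replace those of the main test. Without both arrays numbered 2, with 2 arrays left in each group, 8 were called, all higher: Rrs1, Gnl3, Nop2, Ddx21, Rrp12, Heatr1, Tsr1 and Nop56. In that fit 0.940% of all genes were called. Leaving out a single array gave 26 to 39 calls among the 66, and over all genes 1170 calls without oil array 1, 993 without oil array 2 and 1401 without P4 array 2.

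The small subunit list held 32 genes. Of these, 15 rose and 0 fell, and the median difference was 0.34 log2, with quartiles of 0.15 and 0.62. The 2 that rose most were factors of different stages. Rrp12, a HEAT-repeat protein needed for maturation and export of the 40S precursor, gave intensities of 97.7, 94.9 and 81.7 on the oil arrays and 265, 327 and 227 on the P4 arrays. The groups were far apart, and the difference was 1.42 ± 0.14 log2 (SE, limma adjusted p = 0.0011), a 2.67-fold rise. Heatr1, the counterpart of yeast Utp10 in the UTP-A complex that first binds the precursor RNA, read 480, 356 and 440 after oil and 861, 893 and 990 after P4. It rose by 1.08 ± 0.12 log2 (limma adjusted p = 0.0019), with every P4 array above every oil array.

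The late 40S factors Ltv1 and Tsr1 rose with them. Ltv1, an assembly factor that stays on the 40S precursor until late steps, read 287, 295 and 333 after oil and 586, 656 and 642 after P4. Tsr1, a GTPase-like protein that occupies the same late particle, read 800, 747 and 838 after oil and 1560, 1681 and 1574 after P4. Neither gene showed overlap between groups, and the differences were 1.01 ± 0.09 and 1.0 ± 0.08 log2 (limma adjusted p = 0.00093 and 0.000606). A group of 9 late 40S factors, put together with these results known and including genes outside the 66, had 7 called higher: Rrp12, Pno1, Bysl, Ltv1, Tsr1, Riok2 and Nob1. Its median was 1.0 log2, and its 2 genes that were not called, Riok1 and Riok3, differed by -0.04 and 0.09. Over all genes 6.08% were called higher. The count and the median depend on which genes were put in. Of small subunit genes left out of the group, Bud23 was called higher (0.46), while Tsr3 (0.24), Dimt1 (0.20) and Tsr2 (0.05) were not called. The calls of Riok2 and Nob1 each held in only 1 of the 6 fits that left out 1 array (limma adjusted p up to 0.154 and 0.166).

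Earlier steps were represented as well. Mphosph10, a core protein of the U3-associated MPP10 complex, read 814, 643 and 717 after oil and 1583, 1388 and 1186 after P4, a rise of 0.92 ± 0.13 log2 (limma adjusted p = 0.00441). Its binding partners Imp4 and Imp3 were not called, at 0.16 ± 0.10 and -0.06 ± 0.12 log2, and Imp3 turned positive (0.07) when arrays were scaled to their hybridisation controls. Utp18, a WD-repeat protein of the UTP-B complex, read 383, 374 and 414 after oil and 707, 743 and 713 after P4. Its groups were tight, and it rose by 0.86 ± 0.08 log2 (limma adjusted p = 0.000936).

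In UTP-A, 5 of 6 genes rose: Heatr1, Wdr75 (0.63), Wdr43 (0.61), Utp4 (0.61) and Utp15 (0.50). The sixth, Nol11, had 0.38 ± 0.13 log2 with an adjusted p of 0.11, and 0.0248 with the replicate block. In UTP-B, 4 of 6 rose, with Tbl3, Pwp2 and Wdr36 beside Utp18, while Wdr3 (0.28) and Utp6 (0.13) were not called. Wdr36 was called in 2 of the 6 fits that left out 1 array, and lost without oil arrays 1 or 2 or P4 arrays 2 or 3 (limma adjusted p up to 0.0813). Wdr3 passed with the replicate block (0.0296). The members of these complexes were listed with the results known, so the counts describe them only.

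The other small subunit genes that rose were Nol10 (0.85 ± 0.09 log2), the counterpart of yeast Enp2, the large scaffold Utp20 (0.58 ± 0.11), the U3-specific protein Rrp9 (0.48 ± 0.10), the RNA-binding protein Nop9 (0.35 ± 0.09) and Nat10 (0.34 ± 0.08), which acetylates cytidines of 18S RNA. Of the 15 small subunit calls, 5 ended in at least 1 fit that left out 1 array. Nop9, Nat10 and Rrp9 each lost theirs without any of oil arrays 1 to 3 or P4 arrays 2 and 3 (limma adjusted p up to 0.147, 0.117 and 0.0813), Utp20 without oil array 1, oil array 2 or P4 array 2 (up to 0.0685), and Utp15 without oil array 2 (0.0594). Averaging all probe sets of a gene also ended the call of Nat10 (adjusted p = 0.0911).

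The remaining 17 small subunit genes were not called. Noc4l, which binds Nop14, stood at 0.37 ± 0.11 log2 with an adjusted p of 0.0673, and 0.0203 with the replicate block. Utp14a (0.27), Utp23 (0.26), Rrp7a (0.19), Rrp36 (0.19), Utp25 (0.16), the GTPase Bms1 (0.15), Nop14 (0.08), Utp3 (0.07) and Utp14b (0.01) were above 0. Utp11 (-0.03), Nol6 (-0.10) and Nol7 (-0.17) were below 0, and the signs of Utp11 and Nol6 turned with scaling to the hybridisation controls.

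The large subunit list held 20 genes, of which 13 rose, 1 fell and 6 were not called, with a median of 0.52 log2. Rrs1, which with Rpf2 brings the 5S RNA particle to the 60S precursor, read 808, 663 and 834 after oil and 1749, 1940 and 1596 after P4. All P4 arrays were at least at 1596 and no oil array passed 834. The difference was 1.18 ± 0.11 log2 (limma adjusted p = 0.00108), a 2.27-fold rise. Rpf2 itself rose by 0.66 ± 0.13 log2 (adjusted p = 0.0139), but this rests on a probe set that can bind related transcripts: its other probe set gave -0.09 (adjusted p = 0.782), and the call ended without oil array 2 (0.0658).

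Gnl3 (nucleostemin), a GTP-binding protein of growing and stem cells that acts on 60S precursors, read 1481, 1268 and 1309 after oil and 2486, 2512 and 2538 after P4. The P4 arrays agreed closely, and the rise was 0.89 ± 0.08 log2 (limma adjusted p = 0.00086). Ftsj3, the counterpart of the yeast RNA methyltransferase Spb1, read 221, 207 and 237 after oil and 368, 429 and 403 after P4, 0.81 ± 0.09 log2 higher (limma adjusted p = 0.00232). Nop2, which methylates a cytosine of 28S RNA, read 583, 560 and 566 after oil and 1003, 892 and 1073 after P4. Rrp8, which methylates an adenosine of 28S RNA, read 267, 254 and 282 after oil and 433, 479 and 455 after P4. Both were without overlap, with rises of 0.78 ± 0.09 and 0.73 ± 0.08 log2 (limma adjusted p = 0.00212 and 0.0022).

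Bop1, Pes1 and Wdr12 form the PeBoW complex, which is needed to remove the second internal spacer of the precursor RNA. Bop1 read 212, 209 and 243 after oil and 317, 373 and 394 after P4 and rose by 0.67 ± 0.11 log2 (limma adjusted p = 0.00784). Wdr12 read 420, 448 and 456 after oil and 508, 697 and 796 after P4, a difference of 0.56 ± 0.15 log2 that was not called (limma adjusted p = 0.0517). Pes1 read 464, 470 and 490 after oil and 537, 607 and 602 after P4, a difference of 0.28 ± 0.08 that was not called (0.0618). All 3 genes had every P4 array above every oil array. Both that were not called passed with the replicate block (limma adjusted p = 0.0105 for Wdr12 and 0.0353 for Pes1), a fit that called 20.9% of all genes.

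The other large subunit genes that rose were Nip7 (0.66 ± 0.08 log2), Rrp15 (0.58 ± 0.09), Nol8 (0.58 ± 0.10), Nop16 (0.48 ± 0.12), Noc2l (0.45 ± 0.10), the RNA kinase Nol9 (0.41 ± 0.08) and Rrp1b (0.38 ± 0.08). The last 4 did not hold in every fit that left out 1 array: Nop16 and Rrp1b held their call only without P4 array 3 and Noc2l only without P4 array 1 (limma adjusted p up to 0.126, 0.109 and 0.0983), and Nol9 lost it without oil array 1, oil array 3 or P4 array 2 (up to 0.0729). With all probe sets of a gene averaged, Nol9 (adjusted p = 0.312) and Rrp1b (0.0593) were not called. Brix1, a 60S assembly factor, had 0.45 ± 0.13 log2 with an adjusted p of 0.0655, and 0.0114 with the replicate block. Noc3l (0.26), Nol12 (0.12) and Rrp1 (0.02) were not called.

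Nop53 was the 1 gene of the 66 that fell. This protein joins the 60S precursor and recruits the RNA exosome, which trims a precursor of large subunit RNA. It read 5189, 5783 and 4704 on the oil arrays and 3634, 3597 and 3715 on the P4 arrays. The P4 arrays lay close together and all below the lowest oil array. The gene fell by 0.51 on the log2 scale, with a standard error of 0.08 (limma adjusted p = 0.0081). A separate probe set of Nop53 fell by 0.58, with values of 1248, 1654 and 1220 after oil and 795, 968 and 955 after P4, and a dim one stood at -0.13.

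**Figure D3:**
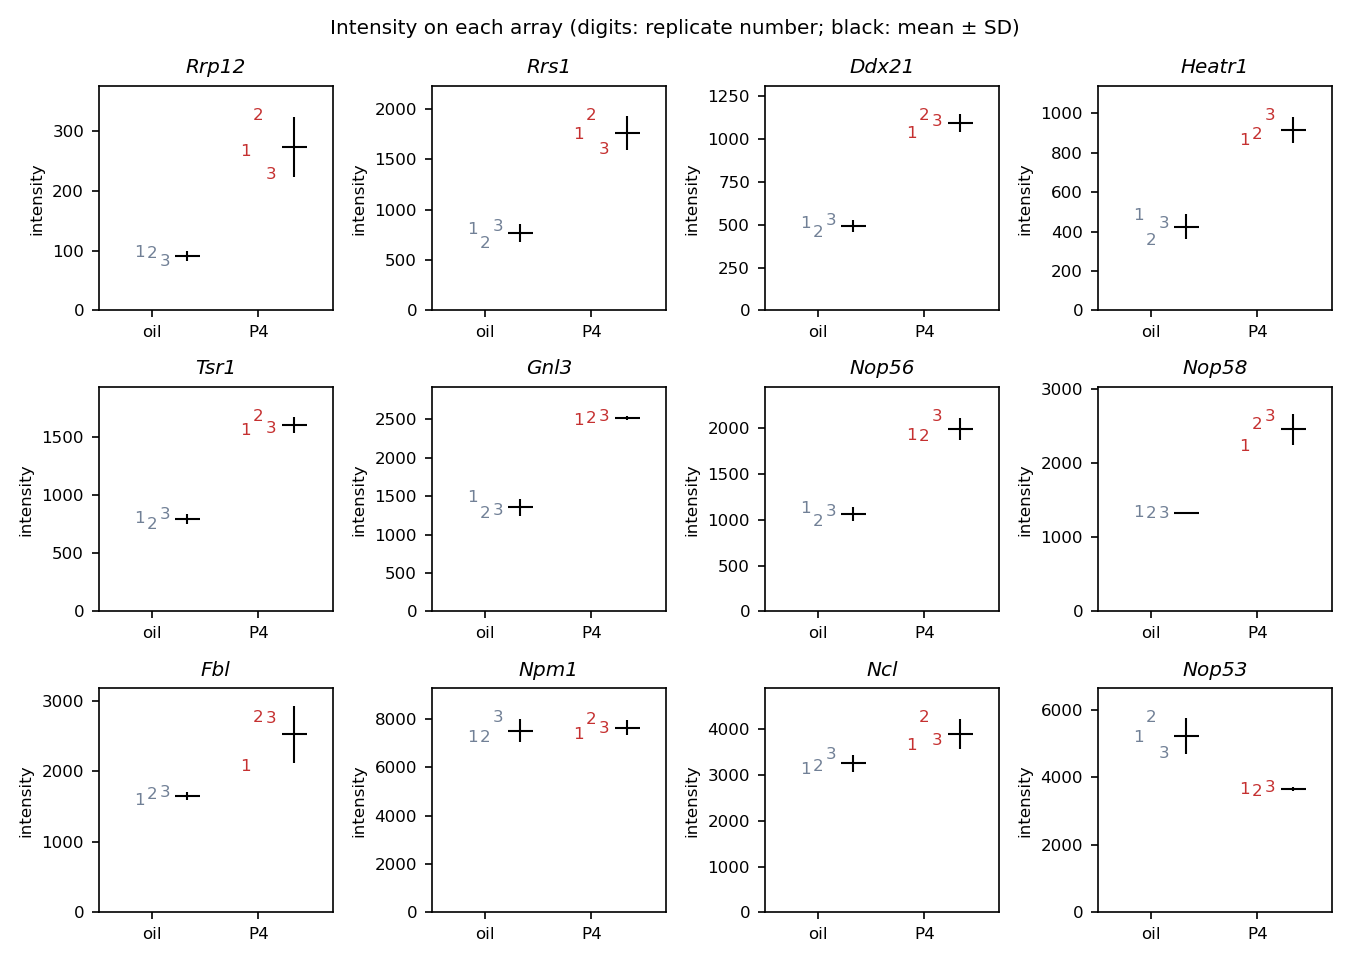
Intensity on a linear axis from 0 (y axis) on each of 3 oil and 3 P4 arrays (digits are replicate numbers) with mean and SD in black, for 12 genes. Rrp12, Rrs1, Ddx21, Heatr1, Tsr1, Gnl3, Nop56, Nop58 and Fbl separate with P4 higher, Nop53 separates with P4 lower, the Npm1 groups overlap, and the Ncl groups, 3109 to 3444 and 3647 to 4253, do not.

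The snoRNP list held 8 genes, of which 7 rose and 0 fell, with a median of 0.68 log2. Nop56 and Nop58 are the paired scaffold proteins of box C/D particles. Nop56 read 1120, 981 and 1090 after oil and 1920, 1910 and 2126 after P4. Nop58 read 1336, 1322 and 1315 after oil and 2227, 2517 and 2634 after P4. The differences were 0.89 ± 0.08 and 0.88 ± 0.08 log2 (limma adjusted p = 0.00105 and 0.000957), with no overlap. Fbl (fibrillarin), the methyltransferase of the same particles, read 1584, 1672 and 1695 after oil and 2064, 2768 and 2750 after P4. P4 array 1 was the lowest of the 3 for Fbl, and the rise was 0.60 ± 0.12 log2 (limma adjusted p = 0.0157). With Rrp9, 4 of the 4 genes counted for the U3 box C/D particle rose, against 6.08% of all genes. That set was listed with the results known, so the count describes it only.

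Box H/ACA particles place pseudouridines and hold 4 core proteins. Nhp2 read 959, 1024 and 1107 after oil and 1501, 1817 and 2055 after P4, a rise of 0.78 ± 0.12 log2 (limma adjusted p = 0.00658). Dkc1 (dyskerin), the pseudouridine synthase, read 751, 708 and 703 after oil and 897, 1078 and 1135 after P4, a rise of 0.51 ± 0.10 (limma adjusted p = 0.0158). In both genes the P4 arrays lay above all oil arrays, and P4 array 1 was the lowest of the 3. Gar1 rose by 0.45 ± 0.09 (adjusted p = 0.0148). Nop10, the smallest of the core proteins, was not called: it read 2273, 2368 and 2006 after oil and 2418, 2278 and 2559 after P4, and the groups overlapped at 0.13 ± 0.09 log2 (adjusted p = 0.422).

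Nolc1 (Nopp140), a nucleolar and Cajal body chaperone of snoRNPs, read 353, 344 and 321 after oil and 543, 669 and 553 after P4. It rose by 0.76 ± 0.10 log2 (limma adjusted p = 0.00389). Of the snoRNP calls, Fbl and Dkc1 ended without oil array 1, oil array 2 or P4 array 2 (limma adjusted p up to 0.0659 and 0.0713) and Gar1 without oil array 1 or 2 (up to 0.0677), so that 4 of 8 genes were called without oil array 1 or without oil array 2.

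The 3 general nucleolar proteins differed from each other. Ddx21, a DEAD-box RNA helicase that acts in ribosomal RNA transcription and processing, read 508, 455 and 522 after oil and 1036, 1139 and 1104 after P4. It rose by 1.12 ± 0.08 log2 (limma adjusted p = 0.000586), a 2.17-fold change with no overlap. Ncl (nucleolin), a histone chaperone and RNA-binding protein, read 3109, 3185 and 3444 after oil and 3647, 4253 and 3743 after P4. The groups did not overlap, but the difference of 0.25 ± 0.08 was not called (adjusted p = 0.0848). Npm1 (nucleophosmin), the abundant histone chaperone of the outer nucleolus, read 7252, 7245 and 8072 after oil and 7379, 7972 and 7593 after P4, with overlap and a difference of 0.02 ± 0.07 (adjusted p = 0.88) that was -0.03 after quantile normalization. Nol3, Nol4 and Nol4l entered by name alone. Nol3 is an apoptosis repressor and not a ribosome factor. Their differences were 0.02, 0.27 and -0.02 log2, and none was called (adjusted p from 0.104 to 0.952); the sign of Nol4l turned with quantile normalization and with scaling to the hybridisation controls.

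Mrto4, a placeholder for the ribosomal stalk on 60S precursors, was seen only on the probe set it shares with the pseudogenes Mrto4-ps1 and Mrto4-ps2. That probe set read 457, 452 and 460 after oil and 689, 854 and 725 after P4, a difference of 0.70 log2 that was not tested as a gene. The share of each symbol in this signal cannot be told apart.

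The 3 main role lists had medians of 0.34 (small subunit), 0.52 (large subunit) and 0.68 log2 (snoRNP), and 46.9%, 65.0% and 87.5% of their genes rose, against 6.08% of all genes. Differences between the lists were not tested. The ranges overlapped widely: small subunit genes ran from -0.17 to 1.42, large subunit genes from -0.51 to 1.18 and snoRNP genes from 0.13 to 0.89. Leaving out Rrp12, Nip7, Ftsj3 and Nol12, which have reported steps in both subunits, gave 14 of 31 small subunit genes and 11 of 17 large subunit genes that rose.

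**Figure D4:**
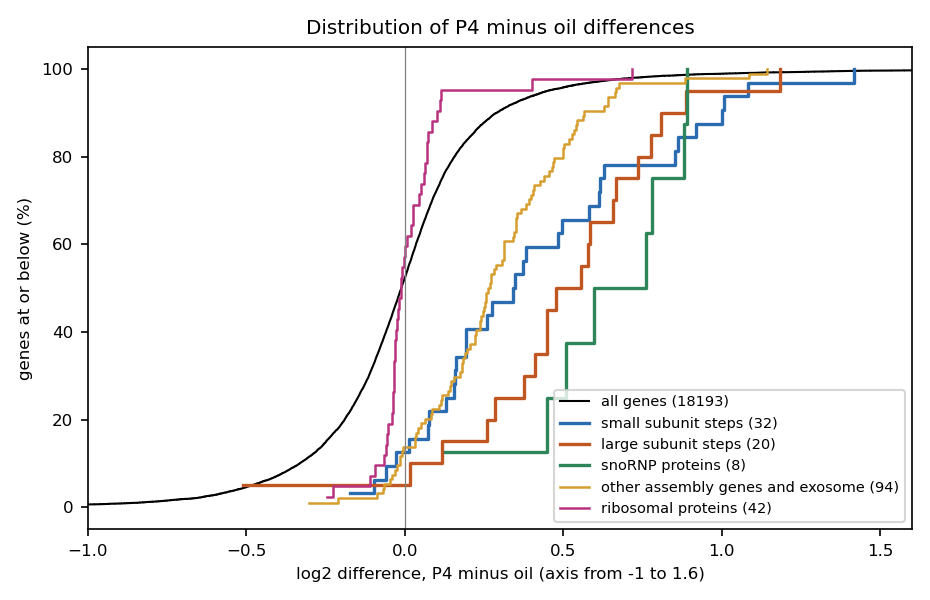
Cumulative share of genes (y axis, percent) at or below each log2 difference of P4 minus oil (x axis, shown from -1 to 1.6) for all 18193 genes, 3 role lists, 94 other assembly genes and 42 ribosomal proteins. The lines of the role lists lie right of the line of all genes, with medians of 0.34, 0.52 and 0.68 against -0.01; the ribosomal proteins lie near all genes, at -0.01.

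Other genes of the same pathway came from lists that do not use the name pattern. Those lists too were chosen with earlier results of these data known. Of 94 measured, 33 rose (35.1%, against 6.08% of all genes) and 1 fell, with a median of 0.26 log2. Among 29 small subunit genes 11 rose: Pno1, an RNA-binding protein of the late 40S precursor, read 608, 565 and 635 after oil and 1304, 1262 and 1489 after P4, a rise of 1.14 ± 0.09 (limma adjusted p = 0.000643). Bysl, the counterpart of yeast Enp1 on the 40S precursor, rose by 1.09 ± 0.12 (limma adjusted p = 0.0021) and Tbl3 of UTP-B by 0.67 ± 0.10 (0.00595), but Tbl3 was not called with its probe sets averaged (0.341). Among 39 large subunit genes 18 rose, led by Urb1 (0.88 ± 0.10), Ppan (0.68 ± 0.07) and Rpf2. The shares called higher were 37.9% and 46.2%. Over the 94 genes, 20 were called without oil array 1, 17 without oil array 2 and 19 without P4 array 2.

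Of 16 exosome genes, which trim and degrade RNA, 3 rose and 0 fell: Exosc1 (0.53 ± 0.08 log2), Exosc9 (0.39 ± 0.11) and Exosc3 (0.38 ± 0.09). These were 18.8% of the list, where 6.08% of all genes were called higher and 13.0% were called in either direction. Exosc9 passed narrowly (limma adjusted p = 0.0499), and it and Exosc3 were each called in only 1 of the 6 fits that left out 1 array. Of 10 snoRNP assembly genes, 2 were called (20%, near the 13.0% of all genes), 1 in each direction. Naf1, which helps build box H/ACA particles, rose by 0.50 ± 0.09 log2. Pih1d1, part of the R2TP chaperone complex, read 463, 485 and 506 after oil and 388, 375 and 405 after P4. Pih1d1 fell by 0.30 on the log2 scale (limma adjusted p = 0.0428), and it was not called with any single array left out (0.0673 to 0.139), after quantile normalization (0.0574) or with scaling to the hybridisation controls (0.19).

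The ribosomal proteins themselves were taken by name pattern after the other lists were set. Of 42 measured, 1 rose (2.38%, against 6.08% of all genes) and 0 fell. The median difference was -0.01 log2, which became 0.11 with scaling to the hybridisation controls. The gene that rose was Rpl12, with 502, 368 and 388 after oil and 803, 692 and 597 after P4, a difference of 0.72 ± 0.15 (limma adjusted p = 0.0178). Its call ended without oil array 2, oil array 3 or P4 array 2 (up to 0.0794). Ribosomal protein genes have many processed pseudogenes, so their probe sets can share signal between copies. Many of these probe sets were very bright, with oil means of 19538 for Rps29 and 17414 for Rplp2. Others were dim, with oil means of 14.4 for Rps16 and 71.2 for Rpl39. The oil mean of Rpl12 was 419, far below the bright ones. An effect of these levels on the differences was not tested.

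Other probe sets of the same genes gave a check within the arrays. The 66 genes had 75 further probe sets, on 47 of the genes, and 19 genes had only 1 probe set. Of the 32 further probe sets of called genes, 30 differed in the same direction and 19, from 18 genes, were called in it, with 10.1% of all 34945 probe sets called. None of the 32 was called in the opposite direction, and the 2 of opposite sign belonged to Nol9 and Rrp1b. For 10 of the 66 genes the probe set used is marked as able to bind several transcripts (Rrs1, Tsr1, Wdr43, Nop53, Nop56, Nhp2, Fbl, Gar1, Noc4l and Bms1). With such probe sets left out, 35 of the 37 calls could be measured and all 35 held, while Tsr1 and Gar1 had none left. Rrs1 had a further probe set at 1.21 log2, Ddx21 at 1.05, Tsr1 at 0.95 and Nop56 at 0.95. That of Tsr1 is also marked as able to bind several transcripts. Others lay well below the probe set used. Heatr1 had further probe sets at 0.78 and 0.22, the lower one not called, and Utp18 had one at 0.31 that was not called. Utp15 had one at 0.23 with a mean intensity of 393, also not called, against 0.50 on the probe set used. Those of Nol9 ran from -0.02 to 0.20 and were not called. Rrp12, with the largest rise, had no further probe set. Among the 43 further probe sets of genes not called, 5 were called higher, 3 of Noc4l and 1 each of Brix1 and Utp23, and 0 lower. Across the 75 pairs Pearson's r was 0.79, and 0.94 over the 35 with a mean intensity above 200; pairs of a gene share the arrays and are not independent. Among the 32 further probe sets of called genes, those that were called had a median intensity of 364, against 131 for those not called.

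**Figure D5:**
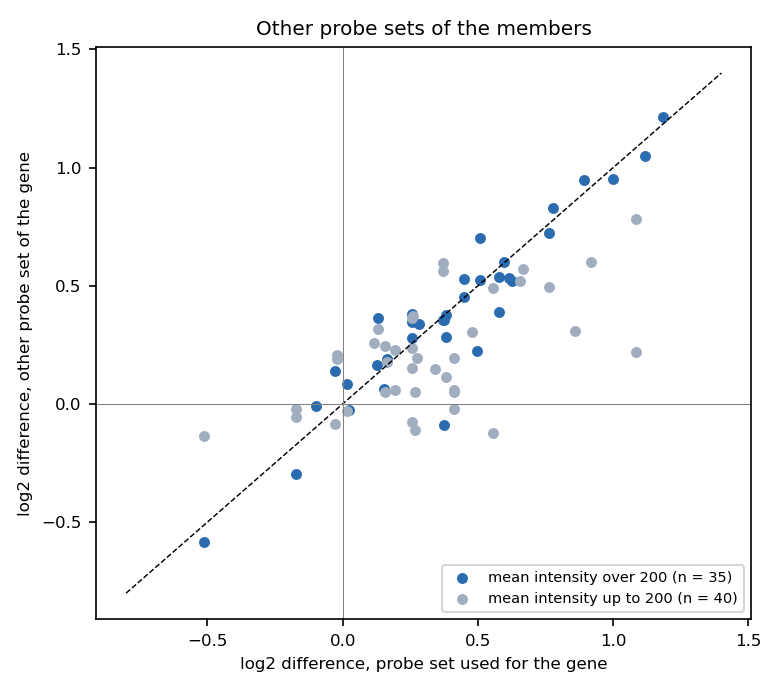
Log2 difference of P4 minus oil on the probe set used for a gene (x axis) against each of its further probe sets (y axis), 75 points, with blue points for a mean intensity over 200 (n = 35) and grey for 200 or less (n = 40). The dashed line is equality; the blue points lie closer to it, with r = 0.94 against 0.79 over all 75.

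The scale of the arrays moved all differences together. The hybridisation controls, transcripts spiked into every sample, read 0.127 log2 lower after P4, with a two-sided exact permutation p of 0.1, which 3 against 3 arrays cannot go below. Scaling to them shifted the median of all genes by 0.127. It changed the split over all genes from 1106 higher and 1262 lower to 1927 higher and 624 lower. Of the 66 genes, all 37 calls held, 44 were then called higher and 1 lower, and 64 of the differences were above 0. Relative to that shift the 66 genes kept the same distance from all genes, since the same amount is added to each difference.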

How the data were processed

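Biotin-labelled cRNA was hybridised to Affymetrix mouse arrays, per the labels' protocols. The authors deposited a linear intensity for each probe set on each array, and their summary and scaling methods are not given in the sources used. The deposited table holds 45101 probe sets, of which 64 are controls. By the platform annotation 34945 probe sets carry a single gene symbol and 932 carry several, while 9160 have no name here; 34741 of the first matched a RefSeq gene table by gene ID, which changed 0 symbols. For each gene the brightest probe set by its 6-array mean was used; 10 of the 66 genes used a probe set marked as able to bind several transcripts.

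The tests used log2(intensity + 16). Array medians spanned 0.0595 log2, below the limit of 0.5 at which quantile normalization would have been added. The pseudocount makes fold changes of dim genes too small. The 2 groups were compared by limma 3.58.1 (R 4.3.3; lmFit, then eBayes with a trend), with Benjamini-Hochberg adjustment over 18193 genes and a threshold of 0.05; the fit was tested on simulated data. The number of arrays limits the precision. Deviations of arrays with the same replicate number from their group means correlated at 0.53, 0.13 and 0.64, each above 0.1, which was read as pairing by number; it comes from the data and not from the labels, and oil array 2 correlated more with P4 array 1 (0.29). Alternatives covered normalization, pseudocounts of 1 and 50, the choice of probe set, a filter on the dimmest 30% of genes, moderation without trend, the replicate block, each array left out, both arrays numbered 2 left out and a threshold of 0.01.

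The genes and lists were chosen with earlier results of these data known; the complexes and the ribosomal proteins were added after the fits. Values on every array are given for up to 6 called genes with the largest difference in each role list, for the called gene against its list's majority and for genes of the same complex; other pathway lists name up to 3 called genes and any called against the majority. Figures were drawn with matplotlib 3.10.9.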

Additional observations from a re-analysis of the deposited data

How the results depend on the processing

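All 37 calls among the 66 genes kept their direction and stayed past the threshold after quantile normalization, median centring, scaling to the hybridisation controls, pseudocounts of 1 and 50, the filter on the dimmest 30% of genes, moderation without trend and the replicate block. Averaging probe sets ended the calls of Nat10, Nol9 and Rrp1b, and adjustment over all probe sets that of Nop9 (adjusted p = 0.0527); 0 of the 37 reversed in any fit. Beyond the 5 gains given beside the genes, the replicate block changed no other call among the 66 genes. With 1 array left out, 26 to 39 of the 66 were called, and 25 of the 37 kept their call with any single array left out. A threshold of 0.01 kept 25. Outside the 66, Rpf2 reversed to -0.0925 without probe sets that bind several transcripts.

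Over all genes, 3801 were called with the replicate block, 171 without both arrays numbered 2, 881 at a threshold of 0.01 and 993 to 2302 with 1 array left out. Without both arrays numbered 2, 8 of the 66 were called, 3 small subunit, 3 large subunit and 1 snoRNP gene among them, and 1 of the other 94 assembly genes (Pno1). At 0.01, 4 snoRNP genes and 15 of the 94 were called. With 1 array left out, 4 to 7 snoRNP genes and 17 to 36 of the 94 were called. The causes were not tested; fewer samples entered the fits with arrays left out.

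Medians moved with scaling to the hybridisation controls by construction, to 0.47 (small subunit), 0.64 (large subunit), 0.81 (snoRNP) and 0.57 (all 66). Averaging probe sets gave 0.28 for the small subunit and 0.38 for all 66, and leaving out both arrays numbered 2 gave 0.39 for all 66; the cause was not tested. With 1 array left out, medians ran from 0.30 to 0.35 (small subunit), 0.45 to 0.61 (large subunit) and 0.38 to 0.50 (all 66). Dim probe sets limit what can be called.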
